A study of Mus musculus with 11 samples.

Results

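The genes described here are 36 imprinted genes, taken by name from the gene rows of the count tables, out of 33188 genes and 1088 subfamilies of transposable elements (TEs). All 36 were found. They lie in 17 imprinted regions: 9 have a control region that carries DNA methylation on the paternal allele (H19, Igf2, Dlk1, Meg3, Rian, Mirg, Rtl1, Dio3 and Rasgrf1), and 27 have one that carries it on the maternal allele. Whole testes at postnatal day 5 (P5) were sequenced for their poly-A RNA, and 11 libraries were used: 2 of wild type (WT), 3 of the Dnmt3C knockout (Dnmt3C KO), 3 of the Nrf1 conditional knockout (Nrf1 cKO) and 3 of the double knockout (dKO). Dnmt3C KO mice lack the DNA methyltransferase DNMT3C in every cell (Dnmt3C KO/KO). Nrf1 cKO mice carry 1 floxed and 1 deleted allele of the transcription factor gene Nrf1 together with Ddx4-Cre (Vasa-Cre), a driver that is active in germ cells, so that their somatic cells keep the floxed copy. The dKO carries both mutations and is labelled Dnmt3CKO/KO, Nrf1KO/KO. All strains were bred onto a C57Bl6/J background, and littermates served as controls where they could be had. The labels name the source as germ cells of spermatogonial type together with somatic cells. The labels number the replicates without tying them to animals, so p-values measure the spread between these samples.

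An imprinted gene is expressed from the copy inherited from 1 parent only. The choice is set in the germ line, where the control region of each cluster is methylated in sperm or in the oocyte, and the mark is then kept in the somatic cells of the offspring. In the male germ line the old marks are erased and the paternal ones are laid down before birth. The paternal mark at Rasgrf1, a guanine nucleotide exchange factor for Ras, depends on the piRNA pathway and on DNMT3C, and a TE fragment of the subfamily RMER4B lies in its control region. A total count of a gene does not separate the alleles, and somatic cells of a Dnmt3C KO testis inherited their marks from the germ cells of the parents.

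The depth was between 26063590 and 39365841 counts per library, with a median of 33862160, and the 36 genes together took between 0.535% and 0.860% of it. Levels are given as CPM, the counts relative to the library size after TMM scaling. Somatic markers were high in every library: the mean log2 CPM of 10 Sertoli markers was between 7.44 and 8.58, and that of 20 germ cell markers between 2.24 and 4.79. In bulk tissue, fewer cells of a type and less RNA per cell cannot be told apart. The germ cell markers were 3.96 to 4.36 in the WT libraries, 4.01 to 4.79 in those of the Dnmt3C KO, 2.24 to 3.45 in those of the Nrf1 cKO and 2.72 to 3.96 in those of the dKO, and all 20 were above 1 CPM in some library. Nrf1 itself was counted at 57.0 and 58.0 CPM in WT and between 45.0 and 60.8 CPM in the mutants, and Dnmt3c at 4.16 and 4.87 CPM in WT and between 3.02 and 4.94 CPM in the mutants. Whole-gene counts do not check the genotype labels here, since somatic cells keep the floxed gene and a mutant allele may still be transcribed.

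One library was the lowest for more of the imprinted genes than any other. Nrf1 cKO replicate 3 was the lowest of the 11 libraries for 18 of the 36 genes, which is 50%, whereas it was the lowest for 11.1% of all 22594 features past the filter on low counts. Its median imprinted gene lay at -0.30 on the log2 scale, measured from the mean of the 4 genotype means, and 28 of 36 genes were below that mean. In dKO replicate 1 more genes, 30 of 36, were below it, with a median of -0.19. Nrf1 cKO replicate 1 was the highest library for 11 of the 36 genes, against 10.3% of all features. In Nrf1 cKO replicate 3 the genes farthest below were Rtl1 at -1.78, Dio3 at -1.23, Mest at -1.08, H19 at -0.89 and Cdkn1c at -0.76. Peg10 at 0.60 and Ppp1r9a at 0.43 were above. In the same library the Sertoli markers were at 8.58, against 7.44 to 7.99 in the other 10, and the 6 stroma markers at 7.37, against 7.52 to 8.49. The 4 epididymal duct markers were at 2.0 there, against -1.49 to 1.70, and the 5 adipose markers at -0.34, against -2.79 to -1.49, although 4 of these 5 were below 1 CPM in every library. The part of these cell type markers in the low imprinted genes was not tested. Without this library, 0 imprinted genes were called by edgeR in any of the 5 comparisons that use it, as with it. The median log2 fold change of the list was then -0.15 in place of -0.03 in dKO over Nrf1 cKO and 0.07 in place of -0.03 in Nrf1 cKO over WT. Over both backgrounds it was -0.15 in place of -0.08 for Dnmt3C loss and 0.03 in place of -0.01 for Nrf1 deletion. Without Nrf1 cKO replicate 1 in its place, these 4 medians moved the other way, to 0.07, -0.23, -0.03 and -0.06.

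**Figure D1:**
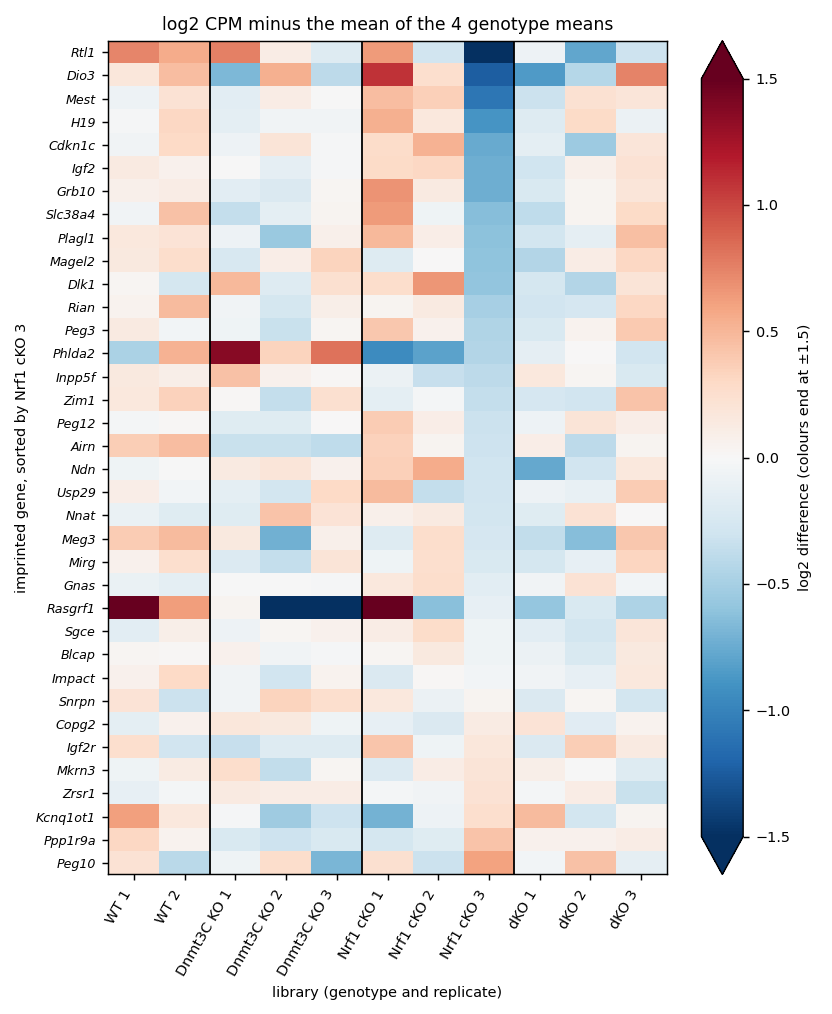
Each cell is the log2 CPM of 1 imprinted gene (rows) in 1 library (columns, by genotype and replicate) minus the mean of the 4 genotype means, red above and blue below, with colours ending at 1.5 in either direction. Nrf1 cKO replicate 3 is blue for 28 of 36 genes and dKO replicate 1 for 30, and Rasgrf1 is the gene with the strongest colours in several columns.

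The levels of the 36 genes covered about 4 orders of size. Per kilobase of annotated exon and averaged over the genotypes, the most abundant were H19, a long non-coding RNA that hosts a microRNA, at 446 CPM per kb, Dlk1, a membrane protein related to Notch ligands, at 230 CPM per kb, and Gnas, the stimulatory G protein subunit, at 107 CPM per kb. Ndn, Mest, Igf2, Cdkn1c and Peg3 followed at 64.7, 52.5, 52.3, 43.3 and 42.5 CPM per kb. In all, 18 genes were above 10 CPM per kb, 12 were between 1 and 10, and 6 were below 1. The 6 lowest were Phlda2 at 0.522, Usp29 at 0.35, Dio3 at 0.25, Kcnq1ot1 at 0.20, Rtl1 at 0.14 and Rasgrf1 at 0.0375 CPM per kb. The SD within a genotype was smallest for Blcap, at 0.12 on the log2 scale, and largest for Rasgrf1, at 1.13.

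**Figure D2:**
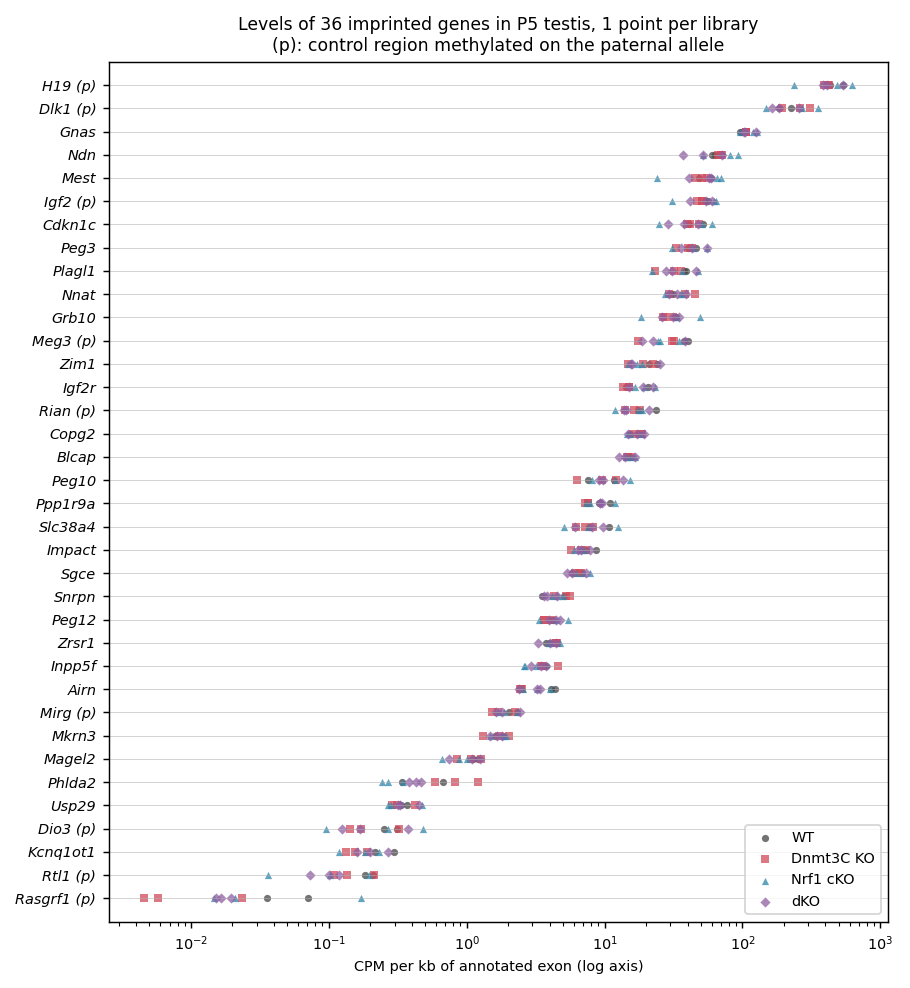
CPM per kilobase of annotated exon on a log axis for the 36 imprinted genes, 1 point per library and 1 colour and shape per genotype, ordered by the mean over genotypes; (p) marks the 9 genes whose control region is methylated on the paternal allele. The levels run from H19 at 446 CPM per kb down to Rasgrf1 at 0.0375 CPM per kb.

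Promoters of 30 of the 36 genes were in the RefSeq table of GRCm38.p6, as 46 windows of 300 bases, from 250 before to 50 after a gene start. Their median content was 13 CpG, against 7 over all 32851 windows. Those of the 4 genes with the lowest log2 fold changes in Dnmt3C KO over WT are printed here with each CpG in capitals. They are Rasgrf1 at chr9:89909525-89909824 (plus strand), Airn at chr17:12741061-12741360 (plus strand), Kcnq1ot1 at chr7:143296498-143296797 (minus strand) and Meg3 at chr12:109540746-109541045 (plus strand). These windows hold 26, 3, 9 and 13 CpG, and another window of Meg3, not printed, holds 1. Methylation was not measured, the windows are not shown to be targets of DNMT3C, and Airn and Kcnq1ot1 are maternally marked.
Rasgrf1: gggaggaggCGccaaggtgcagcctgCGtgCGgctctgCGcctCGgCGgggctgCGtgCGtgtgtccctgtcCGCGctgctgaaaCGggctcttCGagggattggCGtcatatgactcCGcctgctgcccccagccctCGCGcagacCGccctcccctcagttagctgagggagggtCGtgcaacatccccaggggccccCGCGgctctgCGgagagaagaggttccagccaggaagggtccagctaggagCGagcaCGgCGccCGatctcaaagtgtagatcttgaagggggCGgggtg
Airn: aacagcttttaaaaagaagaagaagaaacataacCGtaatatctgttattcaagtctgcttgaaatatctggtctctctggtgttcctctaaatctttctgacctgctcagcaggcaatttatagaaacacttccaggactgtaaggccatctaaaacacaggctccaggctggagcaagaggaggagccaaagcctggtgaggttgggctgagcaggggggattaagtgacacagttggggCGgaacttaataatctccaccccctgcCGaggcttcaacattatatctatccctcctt
Kcnq1ot1: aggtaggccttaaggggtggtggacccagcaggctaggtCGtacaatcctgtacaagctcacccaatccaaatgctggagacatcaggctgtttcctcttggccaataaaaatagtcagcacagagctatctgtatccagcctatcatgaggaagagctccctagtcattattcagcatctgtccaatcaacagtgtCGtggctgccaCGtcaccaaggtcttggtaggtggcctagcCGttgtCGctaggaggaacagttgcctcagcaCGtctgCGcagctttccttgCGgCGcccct
Meg3: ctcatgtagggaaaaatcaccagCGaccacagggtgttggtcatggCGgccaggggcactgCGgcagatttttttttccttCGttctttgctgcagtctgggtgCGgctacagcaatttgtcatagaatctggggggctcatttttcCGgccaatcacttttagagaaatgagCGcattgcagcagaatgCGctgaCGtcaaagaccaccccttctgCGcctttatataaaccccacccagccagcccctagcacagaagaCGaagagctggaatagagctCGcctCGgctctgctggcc
The core motif of NRF1, searched as GCGC, any base and TGCGC, or on the other strand GCGCA, any base and GCGC, was found in the window of 1 gene, Nnat, a small membrane proteolipid whose gene lies within an intron of Blcap. That is 3.33% of the 30 genes, against 5.19% of all genes in the table. The match, in capitals, starts 26 bases before the gene start in chr2:157559828-157560127 (plus strand).
Nnat: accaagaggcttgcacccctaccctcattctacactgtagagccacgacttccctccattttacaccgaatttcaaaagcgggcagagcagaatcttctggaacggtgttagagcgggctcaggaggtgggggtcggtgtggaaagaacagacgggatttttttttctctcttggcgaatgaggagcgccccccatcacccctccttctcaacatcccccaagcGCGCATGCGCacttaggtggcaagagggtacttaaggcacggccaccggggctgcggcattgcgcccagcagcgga
Nnat was at 56.9 and 54.1 CPM in WT, at 54.0, 82.2 and 70.6 CPM in the Dnmt3C KO, at 64.7, 67.0 and 50.5 CPM in the Nrf1 cKO and at 53.7, 70.9 and 61.3 CPM in the dKO. The 4 genotypes overlapped. A match is a description of the letters and not a measure of binding.

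Rasgrf1 (chr9:89909908-90026977, plus strand) had the log2 fold change farthest from 0 after Dnmt3C loss and also the fewest reads of the 36 genes, 148 in all. The WT libraries had 29 and 13 counts, those of the Dnmt3C KO 9, 2 and 2, those of the Nrf1 cKO 62, 6 and 6, and those of the dKO 6, 7 and 6. As CPM these lie at 0.783 and 0.391 in WT, at 0.259, 0.0509 and 0.0635 in the Dnmt3C KO, at 1.88, 0.163 and 0.232 in the Nrf1 cKO and at 0.169, 0.216 and 0.183 in the dKO. Every Dnmt3C KO library was below both WT libraries, while in the Nrf1-deleted pair the groups overlapped and Nrf1 cKO replicate 1 held most of the reads. Against WT and over both Nrf1 backgrounds, the gene passed the filter on low counts only through Dnmt3C-intact libraries, where it is high, and in dKO over Nrf1 cKO it did not pass. The fitted log2 fold changes of -2.22 (SE 0.76) in Dnmt3C KO over WT and of -2.09 (SE 0.63) over both backgrounds are therefore descriptions, and edgeR called neither. The latter was -1.23 without Nrf1 cKO replicate 1. In an exact permutation test within each Nrf1 background (200 regroupings, two-sided), made on the gene by name without that filter, the mean log2 CPM of the Dnmt3C-null libraries minus that of the Dnmt3C-intact ones was -1.62, with p = 0.07, above 0.05. It was -2.18 with Nrf1 intact and -1.07 with Nrf1 deleted. Without Nrf1 cKO replicate 1 the latter was -0.04 and the whole -1.11, and without Nrf1 cKO replicate 2 the whole was -1.94. The exact permutation p was 0.14 and 0.01 in these cases, so that 1 library moves it to either side of 0.05.

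The surroundings of Rasgrf1 were also examined. Of 8 annotated neighbours within 200 kb, 7 passed the filter. Ctsh, a cathepsin, was between 24.7 and 39.7 CPM and Morf4l1, a chromatin protein, between 369 and 517 CPM over all 11 libraries, with overlapping genotypes in both. The 3 RMER4B copies within 50 kb upstream of Rasgrf1 are listed at 0 TPM in every library, and 7 of the 90 TE copies in that window are above 0 in any library. The RMER4B subfamily as a whole was at 28.3 and 22.3 CPM in WT, at 20.9, 14 and 18.5 in the Dnmt3C KO, at 12.5, 18.1 and 19.2 in the Nrf1 cKO and at 25.1, 19.1 and 20.3 in the dKO. It was not called in any comparison; its log2 fold change was -0.51 (SE 0.19, edgeR adjusted p = 0.893) in Dnmt3C KO over WT and 0.38 (SE 0.19, edgeR adjusted p = 1) in dKO over Nrf1 cKO, and its interaction was 0.88 (SE 0.30, edgeR adjusted p = 0.895).

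H19 (chr7:142575529-142578143, minus strand) and Igf2, the insulin-like growth factor expressed from the other allele of the same cluster, share a paternally methylated control region. H19 was at 1059 and 1323 CPM in WT, at 966, 1035 and 1032 in the Dnmt3C KO, at 1544, 1190 and 578 in the Nrf1 cKO and at 938, 1309 and 1006 in the dKO. Igf2 was at 324 and 307 CPM in WT, at 293, 269 and 290 in the Dnmt3C KO, at 358, 366 and 177 in the Nrf1 cKO and at 240, 309 and 342 in the dKO. For both genes the Dnmt3C KO libraries were below both WT libraries, and the other genotypes overlapped WT. The log2 fold change in Dnmt3C KO over WT was -0.24 (SE 0.18) for H19 and -0.15 (SE 0.15) for Igf2, with edgeR adjusted p of 0.953 and 0.971. For H19 it was -0.05 without WT replicate 2 and -0.38 without WT replicate 1, and for Igf2 it ran from -0.18 to -0.10 when each library was left out. Both genes were lowest in Nrf1 cKO replicate 3.

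The cluster on chromosome 12 holds Dlk1, Rtl1 and Dio3, which code for proteins and are expressed from the paternal allele, and the non-coding RNAs Meg3, Rian and Mirg, expressed from the maternal allele. Meg3 (chr12:109541001-109571726, plus strand) was at 682 and 728 CPM in WT, at 581, 318 and 554 in the Dnmt3C KO, at 457, 631 and 439 in the Nrf1 cKO and at 407, 337 and 692 in the dKO. Both WT libraries were above every Dnmt3C KO and Nrf1 cKO library, and 1 dKO library lay between them. The log2 fold change of Meg3 was -0.54 (SE 0.24) in Dnmt3C KO, -0.48 (SE 0.22) in Nrf1 cKO and -0.56 (SE 0.29) in dKO, all against the same 2 WT libraries, with edgeR adjusted p of 0.893, 0.889 and 1. When each library was left out, these values ran from -0.68 to -0.31, from -0.66 to -0.38 and from -0.92 to -0.36. They were closest to 0 without Dnmt3C KO replicate 2, Nrf1 cKO replicate 3 and dKO replicate 2.

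Rian, which hosts 3 RefSeq microRNA hairpins on its strand, was at 319 and 428 CPM in WT, at 298, 257 and 329 in the Dnmt3C KO, at 318, 338 and 218 in the Nrf1 cKO and at 253, 259 and 384 in the dKO. Mirg, which hosts 14, was at 14.9 and 17.0 CPM in WT, at 12.4, 11.1 and 16.3 in the Dnmt3C KO, at 13.6, 17.0 and 12.2 in the Nrf1 cKO and at 11.9, 13.1 and 17.8 in the dKO. All genotypes overlapped WT for both. Their log2 fold changes in Dnmt3C KO over WT were -0.34 (SE 0.18) and -0.27 (SE 0.20), with edgeR adjusted p of 0.928 and 0.953. Without WT replicate 2, Rian was at -0.10, in a range of -0.53 to -0.10 when each library was left out. Mirg ran from -0.44 to -0.16, the latter without WT replicate 2 or Dnmt3C KO replicate 2.

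Dlk1 was at 1282 and 1046 CPM in WT, at 1759, 1098 and 1486 in the Dnmt3C KO, at 1517, 1984 and 838 in the Nrf1 cKO and at 1048, 928 and 1444 in the dKO. It overlapped between all genotypes, with a log2 fold change of 0.31 (SE 0.23) in Dnmt3C KO over WT and -0.34 (SE 0.30) in dKO over Nrf1 cKO (edgeR adjusted p of 0.952 and 1). The former ran from 0.16 without Dnmt3C KO replicate 1 to 0.48 without WT replicate 1, and the latter from -0.62 without Nrf1 cKO replicate 3 to -0.04 without Nrf1 cKO replicate 2. Rtl1, a retrotransposon-derived gene with 6 RefSeq microRNA hairpins on the opposite strand, was at 1.32 and 1.17 CPM in WT, at 1.35, 0.865 and 0.699 in the Dnmt3C KO, at 1.24, 0.653 and 0.232 in the Nrf1 cKO and at 0.759, 0.463 and 0.642 in the dKO. Every dKO library of Rtl1 was below both WT libraries, with a log2 fold change of -1.0 (SE 0.44, edgeR adjusted p = 1). Dio3, a deiodinase that inactivates thyroid hormone, was at 0.513 and 0.631 CPM in WT, at 0.287, 0.661 and 0.349 in the Dnmt3C KO, at 0.971, 0.544 and 0.194 in the Nrf1 cKO and at 0.253, 0.340 and 0.764 in the dKO, and overlapped everywhere.

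**Figure D3:**
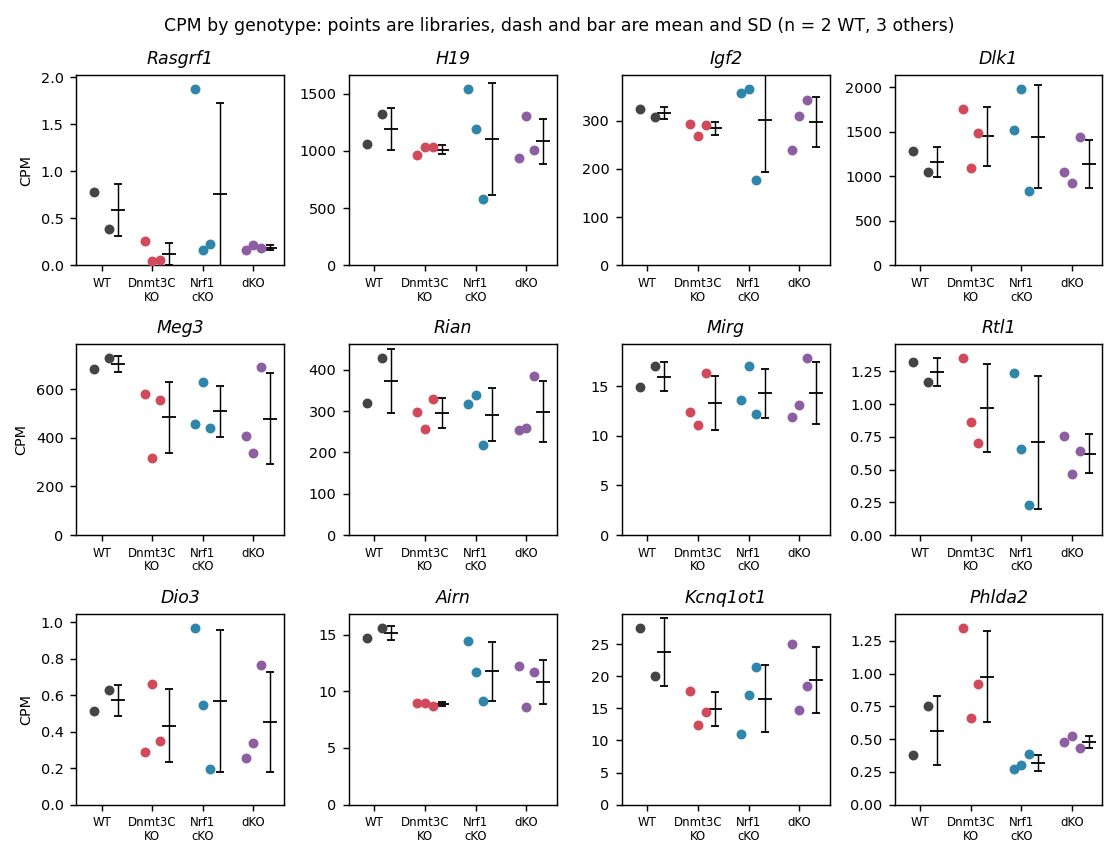
CPM (axis from 0) of the 9 paternally marked genes and of Airn, Kcnq1ot1 and Phlda2 in each genotype; points are libraries, and the dash and bar beside them are the mean and SD (n = 2 for WT, 3 for the others; the bar of Rasgrf1 in Nrf1 cKO runs below 0 and is clipped). The 3 Dnmt3C KO libraries of Airn sit between 8.70 and 8.99 CPM, below the WT libraries at 14.7 and 15.6 CPM.

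Among the 27 maternally marked genes, the non-coding RNAs Airn and Kcnq1ot1 had the lowest log2 fold changes in Dnmt3C KO over WT. Airn (chr17:12741311-12860136, plus strand), which is transcribed across the start of Igf2r and silences it in cis on the paternal allele in many tissues, was at 14.7 and 15.6 CPM in WT, at 8.99, 8.98 and 8.70 in the Dnmt3C KO, at 14.4, 11.7 and 9.14 in the Nrf1 cKO and at 12.2, 8.62 and 11.7 in the dKO. Both WT libraries were above all 9 mutant libraries. The log2 fold change was -0.77 (SE 0.18) in Dnmt3C KO over WT, with a p of 0.00146 that was 0.573 after adjustment over all features in edgeR, and -0.12 (SE 0.22, adjusted p = 1) in dKO over Nrf1 cKO. The DESeq2 Wald test gave an adjusted p of 0.0435 for the former, above the threshold of 0.01, in a range of 0.0435 to 0.999 over all settings tried. Igf2r, the receptor that clears IGF2, was at 192 and 132 CPM in WT, at 127, 141 and 141 in the Dnmt3C KO, at 216, 154 and 181 in the Nrf1 cKO and at 139, 208 and 178 in the dKO. Every Nrf1 cKO library of Igf2r was above every Dnmt3C KO library, and the other pairs of genotypes overlapped.

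Kcnq1ot1 (chr7:143203458-143296549, minus strand), the long antisense RNA of the Cdkn1c cluster, was at 27.6 and 20.1 CPM in WT, at 17.7, 12.4 and 14.5 in the Dnmt3C KO, at 11, 17.1 and 21.4 in the Nrf1 cKO and at 25, 14.8 and 18.5 in the dKO. Dnmt3C KO was below WT in every library, and the other mutants overlapped WT. Its log2 fold change was -0.68 (SE 0.20, edgeR adjusted p = 0.788) in Dnmt3C KO over WT and 0.24 (SE 0.27, adjusted p = 1) in dKO over Nrf1 cKO. The former ran from -0.88 without WT replicate 2 to -0.43 without WT replicate 1. Cdkn1c, the cyclin-dependent kinase inhibitor of this cluster, had overlapping genotypes, with means of 94.3 ± 16 CPM (SD, n = 2) in WT and 88.1 ± 9.18 CPM (SD, n = 3) in Dnmt3C KO. Ppp1r9a, which codes for the actin-binding protein neurabin, was at 160 and 133 CPM in WT, at 110, 104 and 110 in the Dnmt3C KO, at 107, 113 and 173 in the Nrf1 cKO and at 135, 134 and 139 in the dKO. It was lower in every Dnmt3C KO library than in WT (log2 fold change -0.44, SE 0.14, edgeR adjusted p = 0.870) and higher in every dKO library than in Dnmt3C KO (0.33, SE 0.10, adjusted p = 0.675). The former value was -0.29 without WT replicate 1.

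Over the list, no imprinted gene passed an adjusted p of 0.01 for Dnmt3C loss. In Dnmt3C KO over WT, edgeR called 0 of 36 genes and 0% of all 21664 features. Rasgrf1 passed the filter only through WT and is left out of the counts that follow. At an unadjusted p under 0.05 edgeR had 0 higher and 4 lower genes (Airn, Kcnq1ot1, Ppp1r9a and Meg3), the latter 11.4% of 35, where 2.56% of all features were higher and 2.86% lower at that p. The DESeq2 Wald test called 0 as well and had 0 higher and 5 lower among all 36. The Dnmt3C KO libraries were all above WT for 3 genes (Gnas, Ndn and Zrsr1) and all below it for 9 (25.7%), whereas 9.78% of all features were above and 11.5% below. The median log2 fold change was -0.13, against 0.01 over all features, with a median of -0.31 over the 8 other paternally marked genes and -0.09 over the 27 maternally marked ones. Of those 8, 7 had a fold change below 0, and of the 27 maternally marked ones 18. The 8 all lie in the H19/Igf2 and Dlk1/Meg3 clusters and are not independent values.

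Some cell type markers also differed between these 2 groups. As mean log2 CPM, the 6 stroma markers were between 7.92 and 7.99 in the Dnmt3C KO libraries, below 8.08 and 8.17 in WT, and the 5 skeletal muscle markers between 0.19 and 0.74, below 0.93 and 1.0. The 7 macrophage markers, 1 of them under 1 CPM in every library, were between 3.24 and 3.79, above 3.18 and 3.19. The 6 erythroid markers overlapped, at 4.85 to 5.31 in the Dnmt3C KO and at 5.24 and 7.23 in WT. The log2 fold changes of the globin genes ran from -1.41 for Hbb-bt to -0.92 for Hbb-bs, with unadjusted edgeR p of 0.00653 and 0.0214. These rest on WT replicate 2. Hbb-bt was at 61.0 and 256 CPM in WT, against 68.9, 61.6 and 48.0 in the Dnmt3C KO. Hbb-bs was at 237 and 656 CPM, against 303, 209 and 198. Insl3, a hormone of Leydig cells, had a log2 fold change of 0.97 (SE 0.18, edgeR adjusted p = 0.302). None of these genes was called. The 7 Leydig markers together overlapped, at 7.19 to 7.55 against 6.85 and 7.26, and so did those of germ cells, Sertoli cells, peritubular cells, endothelium, epididymal duct and adipose tissue. The part of these markers in the values of the imprinted genes was not tested.

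The same contrast was made with Nrf1 deleted. In dKO over Nrf1 cKO, edgeR called 0 of the 35 genes past the filter and 0% of 20381 features, and neither edgeR nor the DESeq2 Wald test had an imprinted gene at an unadjusted p under 0.05, where 1.94% of all features were higher and 0.868% lower at that p in edgeR. Phlda2 was the 1 gene whose groups did not overlap, being higher in dKO, where 4.14% of all features were higher and 3.29% lower in that way. The median was -0.03 over the list and -0.01 over all features, and the values ran from -0.50 for Ndn, a regulator of neuronal growth of the MAGE family, to 0.58 for Phlda2. Ndn was at 223 and 232 CPM in WT, at 257, 264 and 244 in the Dnmt3C KO, at 299, 342 and 190 in the Nrf1 cKO and at 137, 191 and 261 in the dKO. Its dKO and Nrf1 cKO libraries overlapped (SE 0.27, edgeR adjusted p = 1), and its log2 fold change ran from -0.75 without dKO replicate 3 to -0.29 without dKO replicate 1. Sgce, a sarcoglycan gene, was at 61.1 and 72.5 CPM in WT, at 64.6, 69.6 and 71.4 in the Dnmt3C KO, at 74.0, 82.7 and 65.4 in the Nrf1 cKO and at 61.4, 56.5 and 77.6 in the dKO, with overlap throughout. The log2 fold changes of Inpp5f and Sgce in dKO over Nrf1 cKO were 0.27 (SE 0.15) and -0.18 (SE 0.15), both at an edgeR adjusted p of 1. When each library was left out, Inpp5f ran from 0.17 without dKO replicate 1 to 0.37, and Sgce from -0.33 without dKO replicate 3 to -0.08 without dKO replicate 2.

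**Figure D4:**
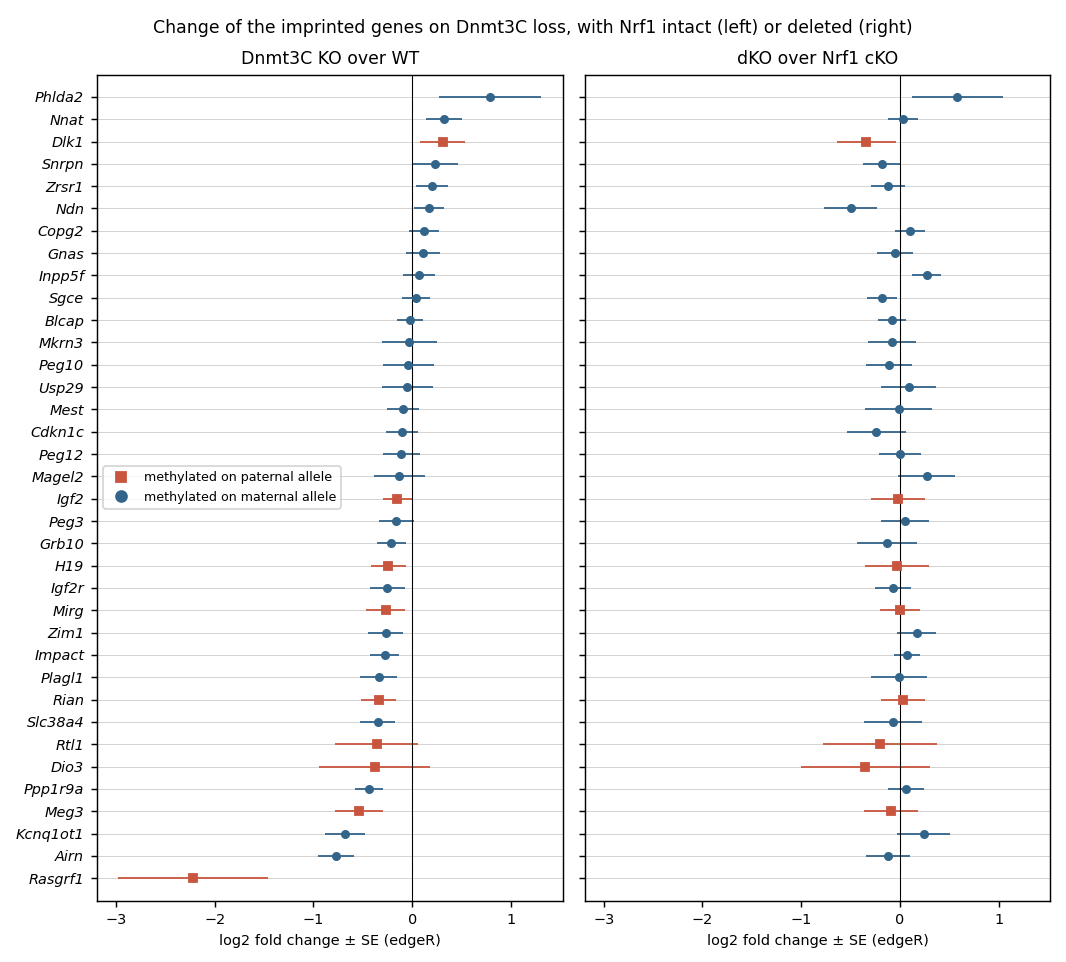
Log2 fold change with its standard error (edgeR) for each imprinted gene on Dnmt3C loss, left with Nrf1 intact (Dnmt3C KO over WT, 36 genes) and right with Nrf1 deleted (dKO over Nrf1 cKO, 35 genes, without Rasgrf1, which did not pass the filter there); red squares are paternally marked genes and blue circles maternally marked ones. On the left 26 genes lie below 0 and 10 above, on the right 22 below and 13 above.

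An interaction term fitted to all 11 libraries tested whether the change on Dnmt3C loss differed between the Nrf1 backgrounds. No imprinted gene was called by edgeR (0 of 36, and 0% of 22594 features) or by the DESeq2 Wald test. At an unadjusted p under 0.05 both had 2 genes above 0 and 0 below. In edgeR these were Kcnq1ot1 with an interaction of 0.92 on the log2 scale (SE 0.38) and Airn with 0.65 (SE 0.29), both at an adjusted p of 0.895. At the unadjusted threshold, 3.68% of all features were above 0 and 1.87% below. Ppp1r9a followed with 0.49 (SE 0.25), Ndn with -0.66 (SE 0.34) and Impact, a regulator of translation under amino acid shortage, with 0.35 (SE 0.20). When each library was left out, these interactions ran from 0.67 to 1.14 for Kcnq1ot1, from 0.48 to 0.82 for Airn, from 0.35 to 0.73 for Ppp1r9a, from -0.92 to -0.48 for Ndn and from 0.21 to 0.45 for Impact. Nrf1 cKO replicate 3 was the library left out at 1.14, 0.48 and 0.73. Impact was at 37.6 and 44.2 CPM in WT, at 34.4, 29.4 and 37.3 in the Dnmt3C KO, at 30.8, 36.3 and 34.7 in the Nrf1 cKO and at 34.4, 32.8 and 39.9 in the dKO. Both WT libraries were above those of the single mutants. The median interaction was 0.14 over the list and -0.01 over all features, and it was -0.04 without Nrf1 cKO replicate 3 and 0.31 without Nrf1 cKO replicate 1. Over both backgrounds together, edgeR called 0 of 36 genes for Dnmt3C loss and 0.00443% of all features (1 of 22594), and at an unadjusted p under 0.05 it had 0 higher and 1 lower apart from Rasgrf1 (Airn, 2.86% of 35, against 1.90% of all features higher and 0.996% lower). With Rasgrf1 counted, DESeq2 had 0 higher and 2 lower by its Wald test, and 0 called. Airn had a log2 fold change of -0.41 (SE 0.16, adjusted p = 1), Phlda2 0.68 (SE 0.32), Inpp5f 0.18 (SE 0.11) and Meg3 -0.29 (SE 0.20). Meg3 ran from -0.50 without dKO replicate 3 to -0.18 without Dnmt3C KO replicate 2.

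For Nrf1 deletion, Phlda2 (chr7:143501545-143503150, minus strand), a small growth-restraining protein known from the placenta, had the smallest p. It was at 0.378 and 0.751 CPM in WT, at 1.35, 0.661 and 0.921 in the Dnmt3C KO, at 0.273, 0.299 and 0.387 in the Nrf1 cKO and at 0.478, 0.525 and 0.428 in the dKO. Every dKO library was below every Dnmt3C KO library, and the Nrf1 cKO and WT libraries overlapped. Over both Dnmt3C backgrounds the log2 fold change was -0.94 (SE 0.32), with a p of 0.00995 and an edgeR adjusted p of 0.504, and in dKO over Dnmt3C KO it was -1.03 (SE 0.41, adjusted p = 0.675). Germ cell markers were lower in the Nrf1-deleted libraries, as given above, and their part in these values was not tested.

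Inpp5f, a phosphoinositide phosphatase, was at 31.4 and 30.0 CPM in WT, at 38.2, 29.5 and 28.6 in the Dnmt3C KO, at 26.7, 22.2 and 21.5 in the Nrf1 cKO and at 31.5, 28.9 and 24.2 in the dKO. All Nrf1 cKO libraries were below WT, and dKO overlapped Dnmt3C KO. Its log2 fold change on Nrf1 deletion was -0.28 (SE 0.11, edgeR adjusted p = 0.589) over both backgrounds. Igf2r and Peg10, a retrotransposon-derived gene, had values of 0.28 (SE 0.13) and 0.25 (SE 0.19), and Rtl1 -0.71 (SE 0.36), none of them called. Peg10 ran from 0.14 without Dnmt3C KO replicate 3 to 0.37 without Dnmt3C KO replicate 2. Peg10 was at 77.8 and 50.6 CPM in WT, at 64.1, 80.6 and 41.9 in the Dnmt3C KO, at 79.6, 53.6 and 102 in the Nrf1 cKO and at 65.2, 91.3 and 61.1 in the dKO, and its genotypes overlapped. Zim1, a zinc finger gene beside Peg3, was at 170 and 194 CPM in WT, at 154, 119 and 180 in the Dnmt3C KO, at 138, 150 and 119 in the Nrf1 cKO and at 128, 125 and 205 in the dKO. Its Nrf1 cKO libraries did not overlap WT (log2 fold change -0.43, SE 0.18, edgeR adjusted p = 0.852).

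Over both Dnmt3C backgrounds, edgeR called 0 of 36 genes for Nrf1 deletion and 0.00443% of all features (1 of 22594). At an unadjusted p under 0.05 it had 0 higher and 2 lower (Phlda2 and Inpp5f), where 3.55% of all features were higher and 4.32% lower. The DESeq2 Wald test had the same counts and 0 calls. The medians were -0.01 over the list and 0.00 over all features. In Nrf1 cKO over WT edgeR called 0 of 36 and 0% of all features, with 0 higher and 1 lower at that p (Zim1, against 1.53% of features higher and 4.22% lower). The Nrf1 cKO libraries were all below WT for 6 genes (16.7%, against 11.6% of features) and all above for 0 (against 9.68%). In dKO over Dnmt3C KO it called 0 of 35 and 0% of all features, with 2 higher (Ppp1r9a and Igf2r, against 3.10% of features) and 1 lower (Phlda2, against 4.08%). Next by p came Ndn at -0.38 (SE 0.20) and Snrpn, a splicing protein gene, at -0.34 (SE 0.18). Ndn ran from -0.64 without dKO replicate 3 to -0.19 without dKO replicate 1, and Igf2r was at 0.20 without dKO replicate 2, in place of 0.36. The dKO libraries were all above those of the Dnmt3C KO for 1 gene (Ppp1r9a, against 6.70% of features) and all below for 1 (Phlda2, against 6.90%). In dKO over WT it called 0 of 36 and 0% of all features, with 0 higher and 2 lower apart from Rasgrf1, which passed the filter only through WT (Rtl1 and Airn, 5.71% of 35, against 0.544% of features higher and 1.19% lower). These 2 were also the genes, again apart from Rasgrf1, with every dKO library below WT (6.76% of features), while Gnas had every one above (6.39% of features). The DESeq2 Wald test called 0 in these 3 comparisons. At an unadjusted p under 0.05 it had, with Rasgrf1 counted where it was tested, 0 higher and 2 lower, 2 higher and 0 lower, and 0 higher and 1 lower. The comparisons over WT share its 2 libraries.

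Snrpn was at 11 and 7.64 CPM in WT, at 9.25, 12.1 and 11.4 in the Dnmt3C KO, at 10.7, 8.98 and 9.84 in the Nrf1 cKO and at 8.27, 9.79 and 7.89 in the dKO, with overlap in every comparison. None of the remaining maternally marked genes was called or had an unadjusted p under 0.05 in any comparison. In Dnmt3C KO over WT their log2 fold changes ran from -0.35 for Slc38a4, an amino acid transporter, to 0.32 for Nnat. Blcap, Mkrn3 and Usp29 were at -0.02, -0.03 and -0.05, Mest, Cdkn1c, Peg12 and Magel2 between -0.13 and -0.09, and Copg2, Gnas and Zrsr1 between 0.11 and 0.20. Peg3, a zinc finger gene of the growth network, averaged 577 ± 50.7 CPM (SD, n = 2) in WT, 515 ± 66.6 in Dnmt3C KO, 576 ± 165 in Nrf1 cKO and 595 ± 129 in dKO (SD, n = 3 each). Mest, a hydrolase-like gene of the mesoderm, averaged 212, 199, 209 and 208 CPM in the same order, and was at 94.9 CPM in Nrf1 cKO replicate 3, where the other 10 libraries were between 161 and 276 CPM. Grb10, an adaptor that restrains insulin and IGF signalling, and Plagl1, a zinc finger transcription factor, were lower in every Dnmt3C KO library than in WT, with means of 257 against 298 CPM and 237 against 300 CPM. Neither passed the test. Gnas was higher in every Dnmt3C KO library, at 1185, 1193 and 1179 CPM against 1114 and 1077 CPM in WT, and its log2 SD within a genotype was 0.14.

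Neighbouring imprinted genes of 1 cluster were set side by side over the 11 libraries, for 6 pairs chosen after their values were seen, so the correlations are a description with no test. Rian and Mirg had a Pearson r of 0.86 and a Spearman rho of 0.95, and r was 0.90 without the 2 libraries farthest from the median. Meg3 and Rian had an r of 0.81 and a rho of 0.85, and r was 0.83 without 2 libraries. H19 and Igf2 had an r of 0.85 and a rho of 0.68, but r was 0.46 without Nrf1 cKO replicates 1 and 3, so that the relation rests on those libraries. Dlk1 with Meg3 had an r of 0.51 and a rho of 0.34, Peg3 with Zim1 0.59 and 0.54, and Airn with Igf2r 0.17 and 0.00. The libraries of a pair share their depth and their mix of cells.

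Other imprinted genes and the factors that set or keep imprints were examined as lists, chosen by name. Of 46 other imprinted genes, 41 were tested over all libraries. For Dnmt3C loss over both backgrounds 0 were called by edgeR and 0 had an unadjusted p under 0.05 (against 1.90% of features higher and 0.996% lower), with a median log2 fold change of -0.01. For Nrf1 deletion 0 were called, 1 was higher and 3 were lower at that p (against 3.55% and 4.32% of features), with a median of 0.01. Of 18 imprint regulators, 17 were tested, with 0 calls, 0 at that p for Dnmt3C loss, and 0 higher and 2 lower for Nrf1 deletion. In Dnmt3C KO over WT alone, again with 0 calls, 2 of 41 other imprinted genes were higher at that p and 0 lower, where 2.56% of features were higher and 2.86% lower. These were Qpct, with a log2 fold change of 0.81 (SE 0.19, adjusted p = 0.555), and Ins2, with 1.16 (SE 0.42, adjusted p = 0.893), named after their values were seen. The Dnmt3C KO libraries were all above WT for 6 of the 41 and all below for 1, where 9.78% of features were above and 11.5% below, and the median was 0.04. Of the 17 regulators, 0 were higher and 2 lower (Tet2 at -0.49 and Zfp445 at -0.36), and 0 lay above WT in every library and 4 below. No other imprinted gene or regulator had such a p in dKO over Nrf1 cKO. The smallest p for Dnmt3C loss belonged to Herc3, with a log2 fold change of 0.29 (SE 0.15), Tet2, a methylcytosine dioxygenase, with -0.22 (SE 0.12), and Ctcfl, a testis paralog of CTCF, with 0.80 (SE 0.47), each at an edgeR adjusted p of 1. For Nrf1 deletion they belonged to Ascl2, a transcription factor gene of the same chromosome 7 cluster as Phlda2, with -1.06 (SE 0.35, adjusted p = 0.483), Kdm1b, a histone demethylase needed for imprints in the oocyte, with -0.30 (SE 0.12), and Mcts2 with -0.43 (SE 0.17), the last 2 at an adjusted p of 0.589.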

How the data were processed

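Per the labels and the methods of the study, the authors aligned stranded poly-A reads to GRCm38 with STAR 2.7.3a, assigned them to genes and to TE subfamilies with TEtranscripts, and deposited raw counts of each pair of genotypes beside DESeq2 1.44.0 results, whose columns of mean normalized counts, log2 fold changes, standard errors, test statistics (score), p-values and adjusted p-values by the authors were not used. The authors also deposited TPM of single TE copies, used here only around Rasgrf1; they left out 1 sample per genotype for low RNA quality. The pairwise tables were joined; a library had the same counts in each.

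Features with few counts were removed (filterByExpr), and TMM, a quasi-likelihood fit and F test in edgeR 4.0.16 (R 4.3.3) were run over genes and TE subfamilies together, with Benjamini-Hochberg adjustment and a threshold of 0.01. Pairs were fitted on their own libraries, Dnmt3C loss, Nrf1 deletion and the interaction on all 11. The standard error of a log2 fold change is its size over the root of F. DESeq2 1.42.0, no filter, other scalings, a threshold of 0.05, leaving out each library, 1 fit of 4 genotypes and the replicate number as a block were alternatives. Rasgrf1 was tested by exact permutation on log2 CPM with a prior count of 1 (scipy 1.17.1, Python 3.11.15). Gene positions and exon lengths are from GENCODE M21, promoters from RefSeq. The count tests were tested on simulated data with 1 fixed spread between replicates, which does not give their sensitivity on these libraries.

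The members, the lists and the alternatives were chosen with earlier results of these data known. Named by library were the 9 paternally marked genes and the 5 genes with the smallest p in each comparison, further genes by range or where the text turns on them; of other imprinted genes and regulators, the 3 with the smallest p for each mutation. Reads are not marked molecules, so depth covers counting error only, and replicates differed by more than sampling noise. Exons shared between overlapping imprinted transcripts (Igf2r and Airn lie on opposite strands and were counted by strand) may split reads.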

Additional observations from a re-analysis of the deposited data

How the results depend on the processing

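The count of imprinted genes called stayed at 0 in all 8 comparisons under each of the 113 alternatives run, with the replicate number as a block included. Since edgeR called at most 1 of all features in any comparison, this says nothing about stability. At a threshold of 0.05 edgeR called 0 imprinted genes in every comparison, and the DESeq2 Wald test gave Airn an adjusted p of 0.0435 in Dnmt3C KO over WT. Deviations of same-numbered libraries correlated between -0.233 and 0.221, and those of other libraries of different genotypes between -0.258 and 0.299. This cannot decide whether samples were paired, as each group holds few libraries and some replicate numbers differ between labels. For 47 results, picked for a small p or, in Dnmt3C KO over WT, for a paternal mark, the direction held in all 602 alternatives. None passed 0.01. Results picked for the smallest p tend to keep their direction, so this says little. Leaving Rasgrf1 out of the list was chosen after seeing the data. The Rasgrf1 difference on Dnmt3C loss was -1.62 and ran from -1.94 to -1.11 on the log2 scale when each library was left out, with an exact permutation p between 0.01 and 0.14, so it shows no stable call. The list's median in Nrf1 cKO over WT was -0.03 and went to -0.23 without Nrf1 cKO replicate 1. Its medians in Dnmt3C KO over WT, in dKO over WT and on Dnmt3C loss stayed below 0 throughout, but all of these use the same WT libraries. With Rasgrf1 counted, the median in Dnmt3C KO over WT ran from -0.22 to -0.09 over the settings. In dKO over Nrf1 cKO, which uses no WT library, it ran from -0.15 to 0.07. Total counts over the 11 libraries were lowest for Rasgrf1 at 148, Dio3 at 189, Phlda2 at 219 and Rtl1 at 325.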
